A study of Sus scrofa with 6 samples.

Results

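The genes described are 40 genes of G2 and mitosis, chosen by function: cyclins and mitotic kinases with the regulators of the anaphase-promoting complex, genes of the kinetochore and the spindle checkpoint, genes of condensin and mitotic chromosomes, and genes of the spindle and of cytokinesis. Kinesin genes with KIF symbols were left out of the choice. The choice was made with earlier results of these data known. Of these 40 genes, 36 matched an identifier of the count table by exact symbol, and all 36 had enough reads to be tested, among 14242 tested genes out of 35670 identifiers. AURKA, PTTG1, KNL1 and MKI67 matched no identifier by symbol and were not analysed here. The RNA came from primary granulosa cell cultures of the pig (Sus scrofa). These somatic cells line the ovarian follicle around the oocyte and were taken by aspiration from small healthy follicles and grown in medium with serum. Control cultures (n = 3) stayed at 37 °C and heat cultures (n = 3) were held at 42 °C for 6 h, and no other agent or allele separates the groups. The titles number biological replicates without saying whether these were separate animals or flasks, so p-values reflect only how far these samples vary, which may be technical. The sources used here give no breed or age of the animals.

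Mitosis is driven by the kinase CDK1 with its B cyclins, which start chromosome condensation and spindle assembly. Each chromosome is held by the spindle at a kinetochore, and kinetochores without attachment feed the spindle checkpoint, which blocks CDC20 and the anaphase-promoting complex until every chromosome is attached. Most genes of this machinery are transcribed late in the cell cycle, and their RNA is low in resting cells. Granulosa cells divide as the follicle grows and go on dividing in culture with serum. In RNA from whole cultures, fewer cells in G2 or mitosis and less of an RNA per cell cannot be told apart.

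Library totals lay between 18711440 and 29606378 counts. Control 2 and 3 were alike across tested genes (Pearson r = 0.990 on log2 CPM; CPM are reads scaled to the size of the library) and so were heat 1 and 2 (r = 0.991). Correlations across genes describe likeness only, since genes are no replicates. Control 1 and heat 3 stood apart from their groups: the correlation of control 1 with control 2 and 3 was 0.901 and 0.905, and that of heat 3 with heat 1 and 2 was 0.916 and 0.909. Control 1 and heat 3 each correlated best with the other, across the groups (r = 0.920). The heat shock gene HSPH1 stood at 189, 100.1 and 87.7 CPM in control 1, 2 and 3 and 1433, 1434 and 1678 CPM in heat 1, 2 and 3, which separates the libraries as labelled. Of 13 granulosa cell markers, 7 were tested, among them INHBA (265 and 173 CPM on average in control and heat) and CYP11A1 (36.4 and 65.3 CPM). GATA4 (19.5 and 76.6 CPM), INHBB (3.3 and 7.57 CPM) and NR5A1 (4.6 and 6.38 CPM) were also tested. So were NR5A2 (12.1 and 10.35 CPM) and STAR (0.484 and 0.679 CPM), and none of the 7 was called. The 11 measured markers summed to 476, 286 and 265 CPM in control 1, 2 and 3. In heat 1, 2 and 3 they summed to 360, 329 and 332 CPM, within the range of the controls. HSD17B1 had too few reads to be tested. The defining markers FSHR, AMH and INHA had too few reads to be tested, with at most 2.14 CPM in any library, and CYP19A1 and FOXL2 matched no symbol.

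Of the 36 tested members, 14 were called lower in the heat cultures and 22 were not called (edgeR, Benjamini-Hochberg adjusted p below 0.05 over all tested genes). The 14 are 38.9% of the members, while 4.32% of all tested genes were called lower. No member was called higher, against 6.71% of all tested genes. At an unadjusted edgeR p below 0.05, 24 members were lower (66.7%, against 14.4% of all tested genes) and 2 higher (5.56%, against 19.5%). DESeq2 called 23 lower (63.9%, against 12.6%) and 2 higher (5.56%, against 14.9%). Every heat library lay below every control for 23 members, or 63.9%, against 16.8% of all tested genes, and every heat library lay above every control for 2 members, against 20.9%. The median log2 fold change, heat minus control, was -1.32 over the members and 0.05 over all tested genes. The members, summed, made up 0.230 ± 0.0317% of control counts and 0.0983 ± 0.0266% of heat counts (SD, n = 3).

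**Figure D1:**
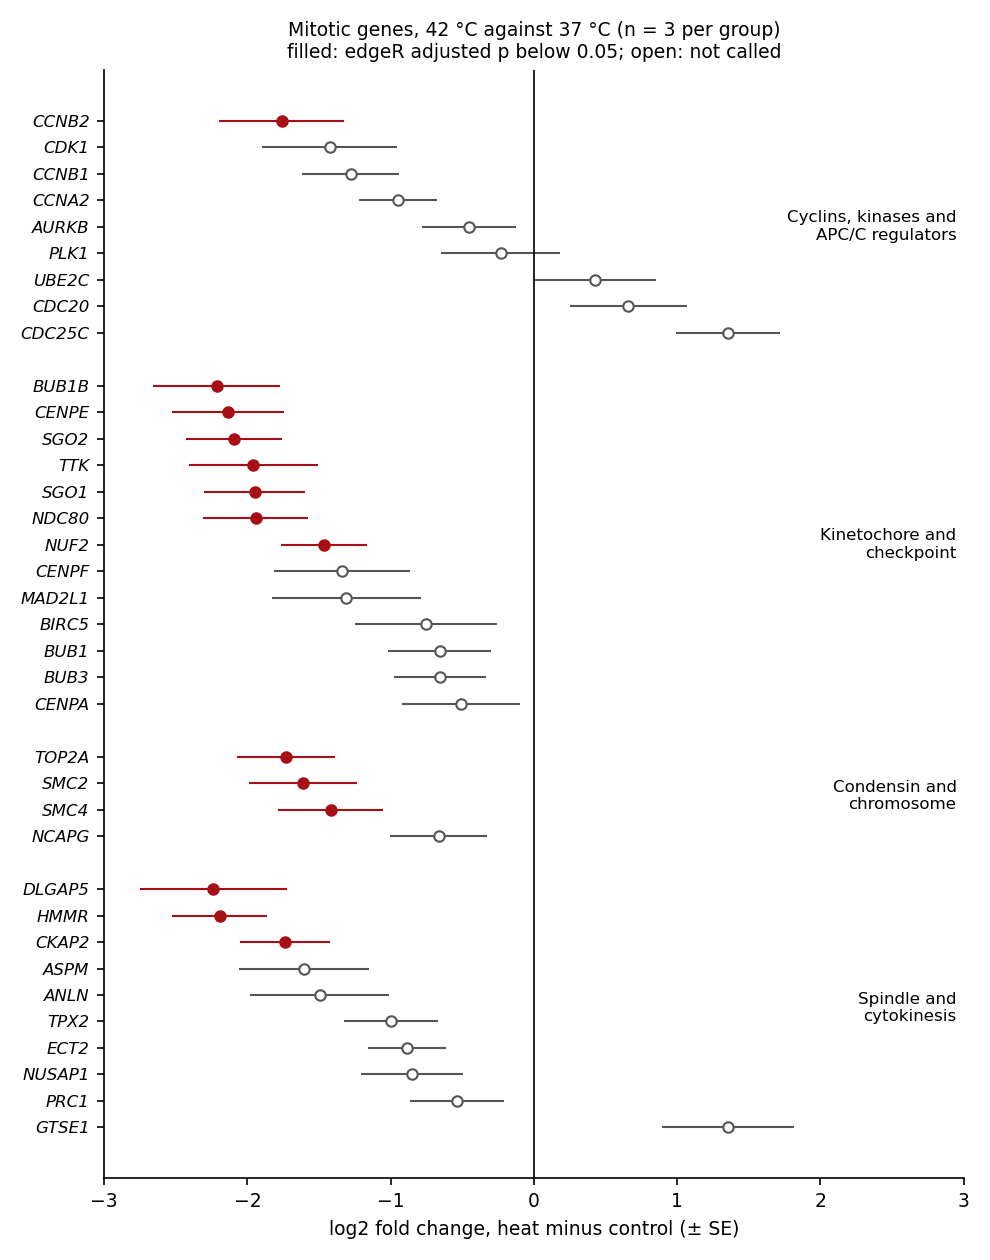
Log2 fold change, heat minus control, with its SE for the 36 tested members, grouped by role (n = 3 libraries per group). Filled points mark the 14 members called by edgeR; 32 of the 36 points lie below 0, and CDC25C and GTSE1, both at 1.35, lie farthest above it.

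The members' median lay between -1.06 (without control 1) and -1.58 (without heat 3) when each library was left out in turn. With control 1 left out edgeR called 19 members lower and 4 higher of the 36, where 12.3% of all tested genes were lower and 19.6% higher. With heat 3 left out it called 25 lower and 2 higher of the 36, where 17.7% of all tested genes were lower and 18.4% higher. In the fits that left out control 2, control 3, heat 1 or heat 2, edgeR called 0 of all tested genes lower, members included. At an unadjusted p below 0.05 those 4 fits had 20, 24, 16 and 19 members lower (55.6%, 66.7%, 44.4% and 52.8%), against 8.42%, 9.06%, 9.14% and 9.75% of all tested genes. In the same fits limma-voom also called 0 members lower, where it called only 0, 0, 1 and 1 of all tested genes lower. DESeq2 called 15, 18, 14 and 14 of the 36 there, against 3.28%, 3.97%, 4.69% and 4.91% of all tested genes. DESeq2 called each of the 14 members again in all of its 6 fits without a library. With control 2 and 3 summed and heat 1 and 2 summed, which leaves 2 against 2, edgeR called 0 of all tested genes lower, with 16 members lower at an unadjusted p below 0.05 (44.4%, against 4.08%). Without control 1 and heat 3, the libraries that stood apart, edgeR called 29 members lower and 4 higher, but there 38.4% of all 15251 tested genes were lower and 41.2% higher.

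**Figure D2:**
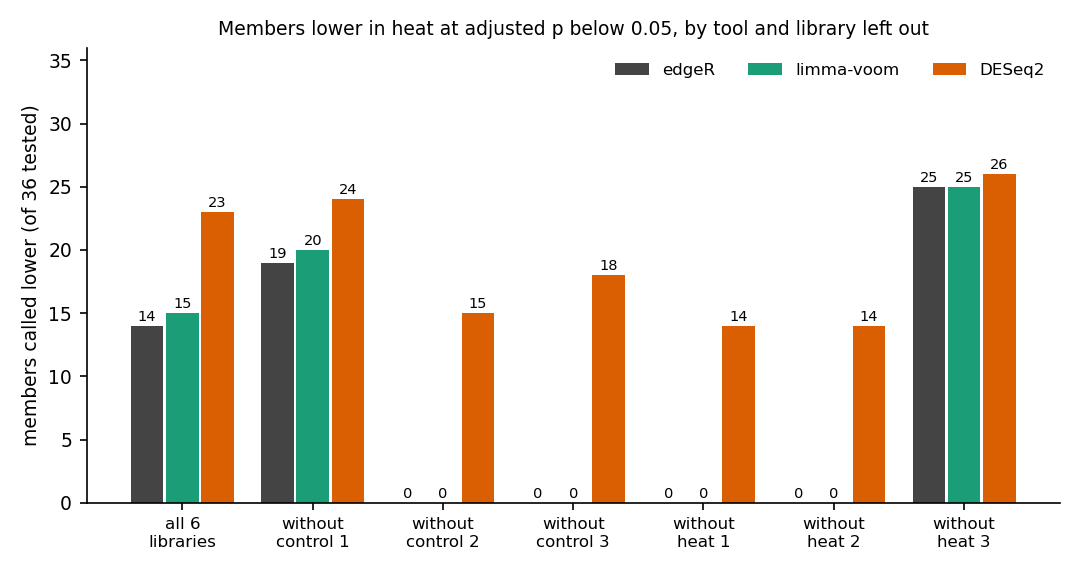
Number of members, of 36 tested, called lower in heat at an adjusted p below 0.05 by 3 tools, with all 6 libraries and with each library left out. edgeR and limma-voom fall to 0 without control 2, control 3, heat 1 or heat 2. Of all tested genes, edgeR called 0 and limma-voom at most 1 lower in those fits. DESeq2 stays between 14 and 26 in every fit shown.

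Markers of other cell types differed between the libraries as well. The summed level of 9 stromal markers, all tested, was 65555, 14913 and 14551 CPM in control 1, 2 and 3 and 92426, 83692 and 39748 CPM in heat 1, 2 and 3. The range in the controls overlapped that in heat. Leukocyte markers, of which 3 of 8 were tested, summed to 3.67, 31.4 and 63.7 CPM in control 1, 2 and 3 and to 5.98, 4.88 and 1.56 CPM in heat, with the T cell marker CD3E at 0 in every library. LYZ, which carried most of the leukocyte sum in control 2 and 3, was called lower (edgeR adjusted p = 0.0447). Its groups overlapped all the same, with control 1 at 0.467 CPM below heat 1 at 0.848 CPM. Theca markers, of which 2 of 6 were tested and neither called, summed to 26.3, 5.72 and 6.20 CPM in the controls. In heat they summed to 78.6, 73.9 and 27.8 CPM, without overlap but with heat 3 close to control 1. The 2 tested, PTCH1 and NR2F2, carried most of the sum. PTCH1 overlapped between the groups, with control 1 at 10.0 and heat 3 at 5.75 CPM, while NR2F2 did not. INSL3, a defining theca marker, was at 0 in every library, and CYP17A1 and LHCGR reached at most 0.199 and 0.183 CPM. Of 5 measured oocyte markers, ZP2, ZP3 and FIGLA were at 0 in every library and only GDF9 was tested. GDF9 was called higher, at 6.48, 6.07 and 5.16 CPM in the controls and 18.5, 19.2 and 9.41 CPM in heat (log2 fold change 1.41 ± 0.36, edgeR adjusted p = 0.0477). The 5 measured endothelial markers summed to between 5.32 and 11.2 CPM, and the groups overlapped. The members' summed level was 3208, 2359 and 1809 CPM in control 1, 2 and 3 and 797, 844 and 1161 CPM in heat 1, 2 and 3. Control 1, with the highest stromal sum of the controls, also had the highest sum of the members, while heat 3 had the lowest stromal sum and the highest sum of the members among the heat libraries. The collagens COL1A1, COL1A2 and COL3A1 carried most of the stromal sum. The contractile genes ACTA2 and TAGLN of the same list ran the other way in heat, with heat 3 the highest: ACTA2 was at 3584, 3479.7 and 8973 CPM and TAGLN at 918, 828 and 2693 CPM in heat 1, 2 and 3. The part of these cell type differences in the result was not tested.

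Genes of the kinetochore and the spindle checkpoint held 7 of the 14 calls. These were 7 of 13 tested, with 6 uncalled and a median log2 fold change of -1.47. BUB1B encodes BubR1, the checkpoint protein that binds and holds CDC20. Its level was 52.5, 37.1 and 27.9 CPM in control 1, 2 and 3 and 5.19, 7.02 and 13.0 CPM in heat 1, 2 and 3. All heat libraries lay below all controls, the highest being heat 3, and the log2 fold change was -2.22 ± 0.44 (SE, edgeR adjusted p = 0.0339). CENPE, a kinetochore motor that carries chromosomes to the spindle equator, stood at 356, 196 and 178 CPM in the controls and 48.3, 48.4 and 69.1 CPM in heat. Its groups did not overlap and the fold change was -2.14 ± 0.39 (edgeR adjusted p = 0.0309), a level 4.39 times lower in heat. SGO2, a shugoshin that protects centromeric cohesin, had the smallest adjusted p of the role group. It stood at 41.6, 33.5 and 27.2 CPM in the controls and 6.08, 7.58 and 10.3 CPM in heat, and the fold change was -2.09 ± 0.34 on the log2 scale (edgeR adjusted p = 0.0276). SGO1, the other shugoshin, fell alongside, from 10.6 ± 2.14 to 2.72 ± 0.678 CPM (SD, n = 3). In single libraries it was at 11.8, 11.8 and 8.08 CPM in the controls and 2.49, 2.19 and 3.48 CPM in heat, without overlap (log2 fold change -1.95 ± 0.35, edgeR adjusted p = 0.0298).

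TTK, also called MPS1, is the kinase that starts checkpoint signalling at kinetochores. It was at 22.3, 25.9 and 16.7 CPM in the controls and 3.44, 3.91 and 9.26 CPM in heat. Heat 3 stood above the other heat libraries but below all controls, and the log2 fold change was -1.96 ± 0.45 (edgeR adjusted p = 0.0411). NDC80 and NUF2 form the arm of the NDC80 complex that grips microtubules. NDC80 stood at 31.6, 29.5 and 22.9 CPM in the controls and 5.14, 6.04 and 10.6 CPM in heat, and its log2 fold change was -1.94 ± 0.37 (edgeR adjusted p = 0.0319). NUF2, its partner, stood at 34.3, 34.6 and 26.2 CPM in the controls and 9.57, 10.6 and 14.1 CPM in heat, with -1.47 ± 0.30 (edgeR adjusted p = 0.0339). The groups overlapped for neither gene.

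The remaining kinetochore members did not pass. CENPF, a large protein of the outer kinetochore, was at 369, 154 and 119.7 CPM in the controls and 91.8, 94.0 and 68.5 CPM in heat, with control 1 well above the other controls and no overlap (log2 fold change -1.34 ± 0.47, edgeR adjusted p = 0.0951). BUB3, which brings BUB1 and BubR1 to kinetochores, was at 42.9, 56.7 and 60.6 CPM in the controls and 26.7, 30.5 and 44.3 CPM in heat, and heat 3 lay above control 1 (log2 fold change -0.66 ± 0.32, edgeR adjusted p = 0.185). MAD2L1, the checkpoint protein that captures CDC20, averaged 33.6 ± 13.0 against 13.5 ± 8.68 CPM (SD, n = 3), and heat 3 at 23.6 CPM exceeded control 1 at 18.8 CPM. The kinase BUB1 averaged 24.5 ± 10.5 against 15.5 ± 0.31 CPM. BIRC5, the survivin subunit of the chromosomal passenger complex, averaged 6.83 ± 1.71 against 4.04 ± 2.59 CPM, and CENPA, the histone variant of centromeres, 3.97 ± 0.488 against 2.78 ± 1.19 CPM. Each of these 4 overlapped between the groups, with edgeR adjusted p-values of 0.123, 0.228, 0.308 and 0.402. Without control 2, control 3, heat 1 or heat 2, edgeR called 0 kinetochore members, of which 8, 9, 7 and 8 were lower at an unadjusted p below 0.05. DESeq2 called 7, 8, 7 and 7 in those fits. The shares of all tested genes there were 8.42% to 9.75% at that unadjusted p and 3.28% to 4.91% by DESeq2. Without heat 3, edgeR called 11 of 13 lower, where 17.7% of all tested genes were lower.

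**Figure D3:**
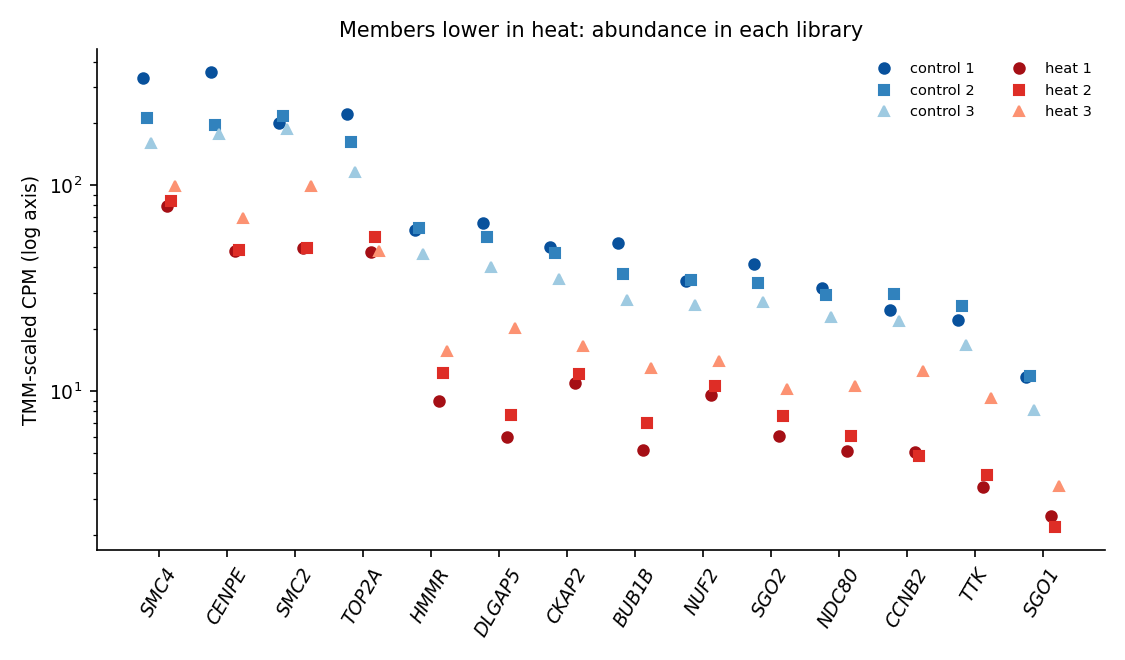
Abundance (TMM-scaled CPM, log axis) of the 14 members called lower in heat, in each of the 3 control (blue) and 3 heat (red) libraries, ordered by mean level over all libraries. For every gene the 3 heat points lie below the 3 control points.

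Among genes of condensin and mitotic chromosomes, edgeR called 3 of 4 tested members lower. TOP2A, the topoisomerase that untangles sister chromatids, stood at 223, 162 and 116 CPM in control 1, 2 and 3 and 47.4, 55.9 and 47.8 CPM in heat 1, 2 and 3. The heat libraries lay close together, below all controls, and the log2 fold change was -1.73 ± 0.34 (SE, edgeR adjusted p = 0.033). SMC2 and SMC4 are the paired ATPase subunits shared by both condensins. SMC2 stood at 201, 217 and 188 CPM in the controls and 49.9, 49.4 and 98.9 CPM in heat, and SMC4 at 332, 213 and 160.2 CPM in the controls and 79.6, 83.7 and 99.96 CPM in heat. For SMC2, heat 3 was above the other heat libraries, while for SMC4 the widest spread was among the controls. Their log2 fold changes were -1.61 ± 0.38 and -1.42 ± 0.37, with edgeR adjusted p-values of 0.0413 and 0.0483. NCAPG, a subunit of condensin I alone, did not pass, at 69.7, 47.7 and 33.3 CPM in the controls and 31.6, 34.5 and 29.0 CPM in heat. Control 3 lay among the heat libraries for this gene (log2 fold change -0.67 ± 0.34, edgeR adjusted p = 0.203). Without control 2, control 3, heat 1 or heat 2, edgeR called 0 of the 4. At an unadjusted p below 0.05, 3, 4, 3 and 3 were lower there, against 8.42% to 9.75% of all tested genes. DESeq2 called 3 in each of those fits, against 3.28% to 4.91%.

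Among spindle and cytokinesis genes, edgeR called 3 of 10 lower and 0 higher, with a median log2 fold change of -1.25. At an unadjusted p below 0.05 GTSE1 was higher, and DESeq2 called it higher. HMMR, a spindle protein that also binds hyaluronan, stood at 60.5, 62.1 and 46.7 CPM in control 1, 2 and 3 and 8.98, 12.2 and 15.7 CPM in heat 1, 2 and 3. Its highest heat library was 15.7 CPM and its lowest control 46.7 CPM, and the log2 fold change was -2.19 ± 0.33 (SE, edgeR adjusted p = 0.0276). DLGAP5, also called HURP, stabilises the microtubules that hold chromosomes. It stood at 65.4, 56.0 and 40.1 CPM in the controls and 6.03, 7.67 and 20.4 CPM in heat, with heat 3 well above the other heat libraries, and the log2 fold change of -2.24 ± 0.51 was the lowest of all members (edgeR adjusted p = 0.0405). CKAP2, a microtubule-associated protein of the spindle, stood at 50.5, 46.8 and 35.3 CPM in the controls and 10.9, 12.1 and 16.6 CPM in heat (log2 fold change -1.74 ± 0.31, edgeR adjusted p = 0.0293).

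Of the 7 spindle members that did not pass, 5 had every heat library below every control. Among all 10 tested spindle members this share was 80%, against 16.8% of all tested genes. ANLN, which encodes the contractile ring protein anillin, was at 678, 451 and 284 CPM in the controls and 124, 121 and 256 CPM in heat. Heat 3 came close to control 3 (log2 fold change -1.50 ± 0.48, edgeR adjusted p = 0.0775). ECT2, the exchange factor that activates RhoA for cytokinesis, was at 73.6, 80.7 and 65.5 CPM in the controls and 35.0, 40.5 and 43.6 CPM in heat (log2 fold change -0.88 ± 0.27, edgeR adjusted p = 0.0697). The spindle pole protein ASPM averaged 57.6 ± 36.1 against 18.9 ± 0.881 CPM (SD, n = 3), TPX2, which activates Aurora A, 62.6 ± 12.3 against 31.3 ± 8.87 CPM, and the microtubule bundler NUSAP1 50.5 ± 7.05 against 28.0 ± 11.5 CPM. Their edgeR adjusted p-values were 0.0587, 0.0789 and 0.139. PRC1, which cross-links the central spindle, overlapped between groups at 46.3 ± 15.5 against 31.9 ± 0.877 CPM (edgeR adjusted p = 0.275). Without control 2, control 3, heat 1 or heat 2, edgeR called 0 spindle members. In those fits 6, 7, 4 and 5 were lower at an unadjusted p below 0.05, against 8.42% to 9.75% of all tested genes. DESeq2 called 4, 5, 3 and 3, against 3.28% to 4.91%. Without control 1 edgeR called 5 lower, and without heat 3 it called 7, where 12.3% and 17.7% of all tested genes were lower.

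Among the cyclins, kinases and regulators of the anaphase-promoting complex, CCNB2 fell and the other 8 of 9 tested did not pass. Log2 fold changes ran from -1.76 to 1.35, with a median of -0.46. CCNB2, which encodes cyclin B2, stood at 24.9, 29.7 and 22.1 CPM in control 1, 2 and 3 and 5.09, 4.84 and 12.6 CPM in heat 1, 2 and 3. All heat libraries lay below all controls (log2 fold change -1.76 ± 0.44, SE, edgeR adjusted p = 0.0453). CCNB1, the gene of cyclin B1, was at 32.8, 36.8 and 26.7 CPM in the controls and 9.47, 11.8 and 18.3 CPM in heat. Its groups did not overlap either, but it missed the threshold (log2 fold change -1.28 ± 0.34, edgeR adjusted p = 0.051). CCNA2, the gene of cyclin A2, was at 32.3, 32.5 and 27.6 CPM in the controls and 13.8, 16.2 and 17.9 CPM in heat, again without overlap (log2 fold change -0.95 ± 0.27, edgeR adjusted p = 0.059). CDK1, the kinase partner of these cyclins, averaged 22.1 ± 9.43 against 8.21 ± 3.96 CPM (SD, n = 3), and heat 3 at 12.8 CPM exceeded control 1 at 12.4 CPM (edgeR adjusted p = 0.0799). AURKB, the kinase of the chromosomal passenger complex, averaged 4.18 ± 0.415 against 3.05 ± 0.18 CPM (edgeR adjusted p = 0.347).

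The members with a log2 fold change above 0 were CDC25C, GTSE1, CDC20 and UBE2C, and PLK1 lay near 0. CDC25C, the phosphatase that activates CDK1, stood at 4.34, 5.07 and 3.32 CPM in the controls and 11.7, 13.6 and 7.30 CPM in heat. Every heat library was above every control, the lowest being heat 3, but the gene did not pass (log2 fold change 1.35 ± 0.36, SE, edgeR adjusted p = 0.0519). GTSE1, a microtubule-binding protein that restrains p53 in G2, was placed with the spindle genes. It stood at 2.27, 0.873 and 1.69 CPM in the controls and 4.84, 4.37 and 3.09 CPM in heat, also without overlap (log2 fold change 1.35 ± 0.46, edgeR adjusted p = 0.0869). CDC20, the activator of the anaphase-promoting complex, was at 9.48, 3.62 and 4.91 CPM in the controls and 9.67, 10.0 and 8.62 CPM in heat, and UBE2C, its ubiquitin-conjugating enzyme, at 14.9, 6.11 and 6.15 CPM in the controls and 10.7, 10.4 and 15.2 CPM in heat. For both, control 1 lay among the heat libraries, and control 2 and 3 lay below all of them. PLK1, a kinase needed at every step of mitosis, was at 12.2, 4.32 and 7.04 CPM in the controls and 6.98, 6.56 and 6.42 CPM in heat, so that its heat libraries lay between control 2 and control 3 (log2 fold change -0.23 ± 0.41, edgeR adjusted p = 0.711).

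Whether these members were called depended on the tool and on control 1 and heat 3. With all libraries DESeq2 called CDC25C and GTSE1 higher, the pair that was higher at an unadjusted edgeR p below 0.05. Without control 1, edgeR called CDC25C, GTSE1, CDC20 and UBE2C higher, with log2 fold changes of 1.34, 1.66, 1.12 and 0.96 and adjusted p-values of 0.0446, 0.0373, 0.0312 and 0.0488, and PLK1 changed sign to 0.20 without passing. These 4 of 36 members are a smaller share than the 19.6% of all tested genes called higher in that fit. Without heat 3, edgeR called CDC25C and GTSE1 higher (adjusted p = 0.0138 and 0.0477), which is 5.56% of the members against 18.4% of all tested genes. Without any other single library it called no member higher, with 1 at an unadjusted p below 0.05 in each of those fits, and neither did DESeq2 or limma-voom. Of the 9 cyclins, kinases and regulators, edgeR called 4 lower without control 1 and 4 without heat 3. In those fits 12.3% and 17.7% of all tested genes were lower. It called 0 without control 2, control 3, heat 1 or heat 2. There 3, 4, 2 and 3 of the 9 were lower at an unadjusted p below 0.05, against 8.42% to 9.75% of all tested genes. DESeq2 called 1, 2, 1 and 1 lower, against 3.28% to 4.91%.

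**Figure D4:**
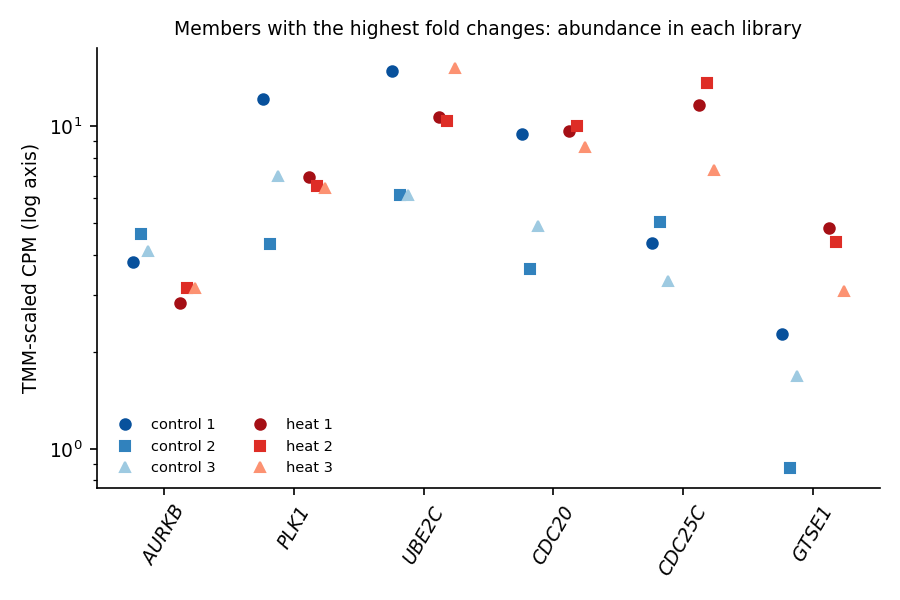
Abundance (TMM-scaled CPM, log axis) of the 6 members with the highest log2 fold changes, in each control (blue) and heat (red) library. CDC25C and GTSE1 show the 3 heat points above the 3 control points, AURKB shows them below, and PLK1, UBE2C and CDC20 overlap, with control 1 the highest control.

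Within the groups, heat 3 was the highest heat library for 26 of the 36 members. These were 11 of 13 kinetochore genes, 8 of 10 spindle genes, 5 of 9 cyclins, kinases and regulators and 2 of 4 condensin and chromosome genes. Control 3 was the lowest control for 25 members. Control 1 was the highest control for 19 members and control 2 for 15, among them 6 of the 9 cyclins, kinases and regulators. The median level of the kinetochore members in log2 CPM was 5.10, 5.07 and 4.71 for control 1, 2 and 3 and 2.63, 2.94 and 3.71 for heat 1, 2 and 3. For the cyclins, kinases and regulators it was 3.65, 2.63 and 2.83 log2 CPM in the controls and 3.26, 3.34 and 3.67 log2 CPM in heat, without separation of the groups. Their summed level did separate, at 147.2, 154 and 124.6 CPM in control 1, 2 and 3 and 76.4, 82.3 and 102.3 CPM in heat 1, 2 and 3.

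**Figure D5:**
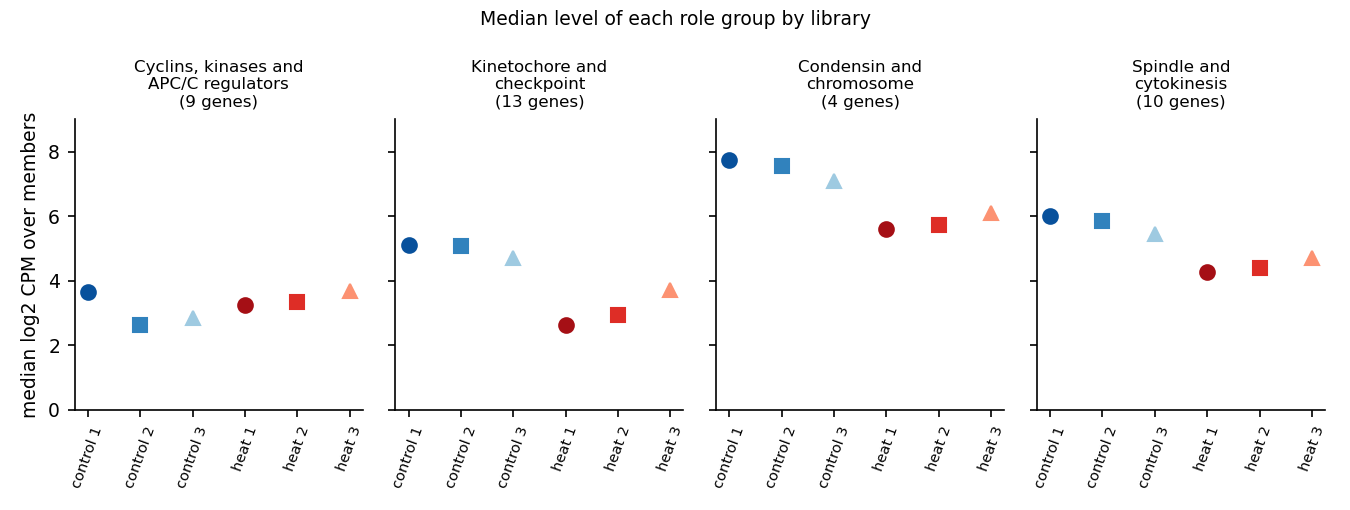
Median level (log2 CPM) of the tested members of each role group, in each library. Kinetochore, condensin and spindle medians are lower in all 3 heat libraries than in all 3 controls, and the cyclin and kinase medians overlap.

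A further list held 138 mitotic genes outside the 40, of which 131 were tested. edgeR called 10 lower, or 7.63%, against 4.32% of all tested genes, and 0 higher. At an unadjusted edgeR p below 0.05, 45 were lower (34.4%, against 14.4% of all tested genes) and 9 higher (6.87%, against 19.5%). DESeq2 called 39 lower (29.8%, against 12.6%) and 7 higher (5.34%, against 14.9%). The median log2 fold change was -0.60. Every heat library lay below every control for 50 genes, or 38.2%, against 16.8% of all tested genes. The difference between this list and the members was not tested. Other kinetochore genes held 3 of the 10, out of 34 tested. SKA1, which couples kinetochores to shrinking microtubules, went from 9.78 ± 1.06 to 2.25 ± 1.04 CPM (log2 fold change -2.11 ± 0.42, edgeR adjusted p = 0.0339). CENPC, the inner kinetochore protein that binds CENPA, stood at 93.8 ± 2.19 against 35.8 ± 10.9 CPM in control and heat.

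Cohesin, the ring that holds sister chromatids together, had 2 called genes of 11. SMC3, an ATPase of the ring, stood at 258 ± 37.8 against 98.6 ± 21.7 CPM (SD, n = 3), with a log2 fold change of -1.39 ± 0.33. STAG2, another subunit of the complex, stood at 170.1 ± 28.3 against 67.0 ± 10.5 CPM, with -1.34 ± 0.31. Of 16 tested genes of the anaphase-promoting complex and its regulators, the inhibitor FBXO5, also called EMI1, and the subunit ANAPC5 fell, from 12.1 to 4.11 and from 12.5 to 5.72 CPM on average. Of 25 other spindle genes, KNSTRN, a kinetochore and spindle protein, and TUBGCP5, a subunit of the gamma-tubulin ring complex, fell, with log2 fold changes of -1.53 ± 0.35 and -1.91 ± 0.50. Of 27 regulators of mitotic entry and mitotic transcription, RBL1, the p107 pocket protein, fell (-1.69 ± 0.43). edgeR called none of 5 other condensin subunits, 10 other cytokinesis genes and 3 other genes of the passenger complex. Every heat library lay below every control for 0, 3 and 1 of these (0%, 30% and 33.3%, against 16.8% of all tested genes). A log2 fold change above 0 was seen for 2 of the 5 condensin subunits. The 10 edgeR adjusted p-values lay between 0.0276 and 0.0493. Without control 2, control 3, heat 1 or heat 2, edgeR called 0 of the 131, with 30, 35, 25 and 25 lower at an unadjusted p below 0.05 (22.9%, 26.7%, 19.1% and 19.1%). DESeq2 called 9, 16, 10 and 10 lower (6.87%, 12.2%, 7.63% and 7.63%), and the shares of all tested genes were those given above for the members. Leaving out control 1 gave 28 lower and 12 higher (21.4% and 9.16%, against 12.3% and 19.6% of all tested genes). Leaving out heat 3 gave 53 lower and 6 higher (40.5% and 4.58%, against 17.7% and 18.4%).

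Among neighbouring parts of the cell cycle, edgeR called 3 of 13 mitotic kinesins with KIF symbols (23.1%) lower. It called 1 of 35 S phase genes (2.86%) lower, against 4.32% of all tested genes. The median log2 fold change was -1.05 for the kinesins and -0.26 for the S phase genes, next to -1.32 for the members. Every heat library lay below every control for 61.5% of the kinesins and 22.9% of the S phase genes. The same share was 63.9% for the members and 16.8% for all tested genes. These differences between lists were not tested.

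By RefSeq on Sscrofa11.1, matched by symbol, BUB1B (ENSSSCG00000004782) lies on chromosome 1 at 131093026 to 131143840, CENPE (ENSSSCG00000023296) on chromosome 8 at 117888968 to 117965325, and SGO2 (ENSSSCG00000016092) on chromosome 15 at 104099378 to 104150723. HMMR (ENSSSCG00000017022) lies on chromosome 16 at 60290684 to 60332411 and DLGAP5 (ENSSSCG00000005056) on chromosome 1 at 184500791 to 184550028. The spans of 14 of the 36 members overlap another annotated gene, including 6 of the 14 called. The longest overlaps of called members were with long non-coding RNAs, over 27259 bases of SMC2 and 15111 of CKAP2. Such RNAs also overlap CENPF (52739 bases) and PRC1 (15601 bases), which were not called. HMMR and NUDCD2 share 272 bases, SMC4 and TRIM59 share 2084, and the whole of OIP5 (17581 bases) lies within NUSAP1. Pseudogenes overlap NDC80 (686 bases) and CDK1 (331 bases). The libraries were stranded, but the sources used here do not say whether the counting used strand, so how such reads were divided is uncertain for these genes.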

How the data were processed

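RNA was measured in 6 stranded mRNA libraries, 3 per group, grouped by the submitters' titles. Per the submitters' processing notes, the tools were FastQC 0.11.4, Trim Galore and STAR, and the assembly was Sscrofa11.1. No counting tool or annotation release is named in the sources used here. The deposited table holds raw counts per Ensembl gene, made by the authors. A second deposited table holds a signal for 13298 genes, the counts divided by 1 size factor per library by the authors. Multiplying back gave whole reads for 100% of its values (tolerance 1e-06). Symbols came from a reference table of 15623 identifiers.

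Genes were kept by edgeR's filterByExpr (minimum count 10). Heat was compared with control over all 14242 genes by the two-sided quasi-likelihood F test of edgeR 4.0.16 (R 4.3.3) with TMM scaling and robust dispersions, adjusted by Benjamini-Hochberg and called below 0.05. CPM are TMM-scaled, given as mean ± SD. The SE was obtained from the test as the size of the log2 fold change over the root of F. CPM are not divided by gene length, so levels were not compared between genes. Replicates varied with a common biological coefficient of 43.6%. The fitting script was tested on simulated counts for 14242 genes, with 50 genes changed at each fold. It recovered 0% of 2-fold, 26% of 4-fold, 76% of 8-fold and 94% of 16-fold changes. Fewer genes changed there than were called here, so these shares may not carry over. Not passing does not show that a member was unchanged.

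The members and lists were chosen with earlier results of these data known. Called members were given in every library, as were the 2 uncalled members with the highest mean per role group. CDC25C, GTSE1, CDC20, UBE2C and PLK1 were given in every library, and the 9 genes of the closing section were named, after their values were seen. Alternatives were other scalings and filters, a block for the replicate number, fits without single libraries, DESeq2 1.42.0, limma-voom and limma (3.58.1) on the authors' normalized signal (log2 after adding a pseudocount of 1 or 0.5), an adjusted p below 0.01 and a minimum fold of 2. Added after seeing the data were the recovered reads, the near-identical libraries summed, and fits without each library by DESeq2 and by limma-voom. No set test was used. With 3 against 3 libraries no exact permutation test was run. No sequences were used here. One called gene of the further mitotic list is counted but not reported by name here.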

Additional observations from a re-analysis of the deposited data

How the results depend on the processing

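Every called member was lower in heat under every alternative that gave it a value, and PLK1 was the only member whose sign changed: its log2 fold change ranged from -0.60 to 0.25 over the fits without 1 library and was 0.20 without control 1 by edgeR, 0.15 by DESeq2 and 0.25 by limma-voom, and 0.24 without control 1 and heat 3. The members' median stayed within the spread between libraries under every alternative, between -1.06 and -1.60. Over the fits that leave out 1 library, by edgeR, DESeq2 or limma-voom, the members called lower ranged from 0 to 26 (14 with all libraries) and those called higher from 0 to 4 (0), other mitotic genes from 0 to 60 lower (10) and from 0 to 15 higher (0), and all genes from 0 to 3595 lower (615) and from 0 to 3670 higher (956). Without control 1 and heat 3 together these 6 counts were 29, 4, 78, 29, 5857 and 6285. DESeq2 with all libraries gave 23, 2, 39, 7, 1792 and 2118. With the near-identical libraries summed, which leaves 2 against 2, edgeR called 0 members and 0 other mitotic genes lower (16 and 9 at an unadjusted p below 0.05), and 0 genes lower and 2 higher in all. At an adjusted edgeR p below 0.01, 0 members and 0 other mitotic genes were lower (24 and 45 at an unadjusted p below 0.05), and 1 gene was lower and 9 higher in all. Whether the replicate numbers pair the libraries could not be told. Deviations from the group mean correlated at 0.299, -0.232 and 0.223 for numbers 1, 2 and 3. Not every library correlated best with its own number. With 3 libraries per group, control 1 and heat 3, which stood apart, weigh heavily on these values, so they cannot decide it. The replicate block gave 19 members lower and 1 higher, 28 other mitotic genes lower and 5 higher, and 1300 genes lower and 2104 higher in all. Library totals alone called 1 member higher, 5 other mitotic genes lower and 2 higher, and 1583 genes higher in all, and moved the median of all genes from 0.05 to 0.17. Without a filter 1 member and 3 other mitotic genes were higher, and 1607 genes in all. At 10 CPM in 3 libraries 396 genes were lower and 532 higher, of 7649 tested. Limma on the authors' normalized signal called 22 other mitotic genes lower with either pseudocount, and the recovered reads called 1 member higher, 15 members lower, 650 genes lower and 981 higher in all. Apart from fewer genes or libraries in a fit, the cause of these moves was not tested. AURKB, PLK1, CDC20, CENPA, BIRC5 and GTSE1 averaged under 10 CPM in both groups, which limits what can be seen for them.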

Other observations

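Of the 131 tested mitotic genes outside the members, 9 had every heat library above every control, which is 6.87% against 20.9% of all tested genes. None of the 9 passed edgeR's test, and DESeq2 called 7 of the 131 higher. MYBL2, the B-MYB transcription factor that acts on late cell cycle genes, stood at 25.1, 9.17 and 10.1 CPM in the controls and 29.5, 29.6 and 52.3 CPM in heat (log2 fold change 1.33 ± 0.48, SE, edgeR adjusted p = 0.0984). HAUS7, a subunit of the augmin complex of the spindle, stood at 0.868, 0.568 and 0.992 CPM in the controls and 2.39, 1.86 and 2.96 CPM in heat (log2 fold change 1.57 ± 0.44, edgeR adjusted p = 0.0572). HASPIN, the kinase that marks histone H3 at centromeres, stood at 1.47, 1.22 and 1.39 CPM in the controls and 2.34, 3.07 and 3.42 CPM in heat (log2 fold change 1.12 ± 0.38, edgeR adjusted p = 0.0869). The other 6 were TRIP13, FZR1, CDCA5, NCAPH2, TFDP1 and TUBG1, with log2 fold changes between 0.17 and 0.94. TRIP13 remodels the checkpoint protein MAD2, and FZR1 (CDH1) activates the anaphase-promoting complex at the end of mitosis.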
